A study of Mus musculus with 15 samples.

Results

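The Hox cluster genes encode homeodomain transcription factors that lie in 4 genomic clusters, Hoxa, Hoxb, Hoxc and Hoxd, and carry paralogue numbers from 1 to 13. Their members were the genes named Hoxa, Hoxb, Hoxc or Hoxd and a number that had a probe set naming no other gene. Where a member had several, the one with the highest mean over all arrays was used. This gave 34 genes, represented by 42 of the 45141 probe sets, among 17097 genes in all. Of the 34 members, 28 were bright enough to be tested, among 13523 genes tested.

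The study used 15 arrays, in 5 groups of 3, to measure gene expression in PDGFra-positive fibroblasts that had been isolated by FACS from the kidney of C57BL/6 mice. One group came from uninjured kidney. In 3 groups the adult mice had acute kidney injury induced by folic acid, and the cells were taken at day 3, day 7 or day 14. The last group was taken 14 days after unilateral ureteral obstruction (UUO), in which a blocked ureter leads to progressive scarring. Folic acid at this use injures the tubule epithelium. No group carries a transgene or a second treatment per the labels, which state an adult age for the injured mice only. All 5 groups share the strain, the sort for PDGFra (a platelet-derived growth factor receptor that fibroblasts carry) and the amplification of a small amount of RNA. The sources used here do not state if the arrays within a group stand for different animals. The p-values therefore rest on the spread between samples alone, and that spread may be technical. With 3 arrays per group the precision is limited.

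Along each cluster, Hox genes are switched on in the order in which they lie on the chromosome, low paralogue numbers first and towards the head, high numbers later and towards the tail. Genes with the same number in different clusters are copies of one ancestral gene, bind similar DNA and often do the same work, with PBX and MEIS proteins as partners on DNA. In the kidney, the paralogue 11 genes are needed in the embryo for the metanephric mesenchyme to call in the ureteric bud, the paralogue 10 genes act in the kidney stroma, and Hoxb7 marks the ureteric bud and the collecting duct that grows from it. Adult fibroblasts are known for keeping a Hox pattern that records their place in the body.

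The bases just before the start sites of 3 members, Hoxa11, Hoxd11 and Hoxd9, are shown. Hoxa11 and Hoxd11, on different chromosomes, were both called higher at folic acid day 3. Hoxd9, a near neighbour of Hoxd11 in the same cluster, was not called there and was called lower in UUO. For Hoxb5, which was called lower at day 3 and in UUO, no window was found. The windows end at the base before the start site, come from RefSeq on the build GRCm38.p6, and run 5′ to 3′ on the strand of the gene. Hoxa11 lies on the minus strand at chr6:52245811-52246060, and Hoxd9 on the plus strand at chr2:74697513-74697762. Hoxd11 has a pair of start sites on the plus strand, with the upstream window at chr2:74679308-74679557 and the downstream one at chr2:74682073-74682322. Capitals mark CpG sites, the pairs of bases that can carry DNA methylation.
Hoxa11: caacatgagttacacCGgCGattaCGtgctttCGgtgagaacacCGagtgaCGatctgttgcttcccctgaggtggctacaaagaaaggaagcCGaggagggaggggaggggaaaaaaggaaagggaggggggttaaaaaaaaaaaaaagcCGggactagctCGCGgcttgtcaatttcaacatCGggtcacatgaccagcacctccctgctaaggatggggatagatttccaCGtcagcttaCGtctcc
Hoxd11 upstream start: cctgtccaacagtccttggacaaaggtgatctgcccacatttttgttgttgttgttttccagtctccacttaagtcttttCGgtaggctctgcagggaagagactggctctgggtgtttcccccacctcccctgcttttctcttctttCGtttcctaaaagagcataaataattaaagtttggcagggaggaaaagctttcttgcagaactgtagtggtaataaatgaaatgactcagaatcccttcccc
Hoxd11 downstream start: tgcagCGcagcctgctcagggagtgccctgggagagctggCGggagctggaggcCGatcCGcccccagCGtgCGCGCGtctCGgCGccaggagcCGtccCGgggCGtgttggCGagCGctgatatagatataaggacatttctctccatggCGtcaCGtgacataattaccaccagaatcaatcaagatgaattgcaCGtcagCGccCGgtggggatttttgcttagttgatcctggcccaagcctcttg
Hoxd9: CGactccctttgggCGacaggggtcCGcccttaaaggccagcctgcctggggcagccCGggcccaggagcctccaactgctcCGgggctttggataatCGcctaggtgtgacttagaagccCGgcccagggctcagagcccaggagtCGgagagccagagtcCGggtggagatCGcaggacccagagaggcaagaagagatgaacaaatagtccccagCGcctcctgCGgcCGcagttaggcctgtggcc

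The Hoxa11 window holds 13 CpG sites, and so does that of Hoxd9. The upstream Hoxd11 window holds 2 and the downstream one 20, so the start sites of Hoxd11 differ widely in this respect. Over the 23 windows found for 21 members, the median was 12 CpG sites in 250 bases (2 to 35), against 6 (0 to 56) over 32851 windows of 27025 genes. The median GC content was 58.0% in the member windows and 52.4% in all. The letters TGATTNAT, to which PBX and a Hox protein can bind together, were searched on both strands. They were found in 2 of the 23 member windows (8.7%), those of Hoxa2 and the downstream start of Hoxd11, and in 2.82% of all windows. In the Hoxd11 window the match reads TGATTGAT on the minus strand. The letters CCAAT were in 13 of 23 (56.5%) against 33.8%, and TATAAA in 4 of 23 (17.4%) against 12.4%. A match of letters is no measured binding, and the arrays carry no data on binding or methylation.

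Values are log2 intensities, and levels of a group are means ± SD over n = 3 arrays, given in the order of the samples' running numbers. Every array was scaled alike by the authors (array medians 4.93 to 5.06). A probe set's level also depends on its own probes, so the level of one gene is not set against that of another. It is set only against the middle of the array. The cells of the groups did not carry the same mix of marker genes. The mean of 10 fibroblast markers was 5.59 to 6.03 in uninjured arrays and 6.85 to 8.71 in all injured arrays, while Pdgfra itself was called in no comparison with uninjured kidney. Of the 10 markers, 4 (Col1a1, Col3a1, Dcn and Tcf21) were called higher in each folic acid group and 6 in UUO, those 4 among them, with 0 called lower. Over all genes tested, 10.6%, 7.50% and 4.20% were called higher at folic acid days 3, 7 and 14 and 9.07% in UUO. Pdgfra was at 6.01 in uninjured kidney, 6.69, 5.50 and 5.28 at folic acid days 3, 7 and 14 and 5.99 in UUO, and Dcn was at 6.30 in uninjured kidney against 11.04 in UUO. The mean of 15 distal nephron and collecting duct markers was 7.50 to 7.99 in uninjured arrays, 5.77 to 6.09 at folic acid day 3, 5.72 to 7.03 at day 7, 7.14 to 7.95 at day 14 and 5.34 to 5.55 in UUO. That of 15 macrophage and dendritic cell markers was 5.06 to 5.44 in uninjured arrays, 5.79 to 6.03 at day 3, 7.91 to 8.81 at day 7, 7.60 to 8.89 at day 14 and 6.19 to 6.45 in UUO. These lists moved with the groups compared here, and in sorted cells a smaller share of cells of a type and less RNA per cell cannot be told apart. They are given again beside the Hox results they touch.

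Most Hox genes of the middle and posterior paralogue groups were above the middle of the array, and most of the anterior ones were not. Of the 34 members, 18 (52.9%) lay above the array median in all 15 arrays, 10 in some arrays and 6 in none. Over all genes 49.5% lay above it in all 15, so the share of Hox genes was close to that of any gene. It was 3 of 11 for paralogues 1 to 4 (27.3%), 7 of 9 for paralogues 5 to 8 (77.8%) and 8 of 14 for paralogues 9 to 13 (57.1%). The clusters were more alike, with 5 of 9 in Hoxa, 5 of 10 in Hoxb, 4 of 6 in Hoxc and 4 of 9 in Hoxd.

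The ends of the clusters were dim. Hoxb1 and Hoxd1, the only paralogue 1 members, were above the median in 0 arrays, at 4.06 to 4.61 and 2.88 to 3.25. Of the paralogue 13 genes, which pattern the most distal limb and the hindgut, Hoxa13, Hoxb13 and Hoxc13 were above it in 0 arrays and Hoxd13 in 2, over a range of 3.66 to 5.19 for all 4. Hoxd3 (3.57 to 4.39) completed the 6 members that were above the median in 0 arrays and were not tested. By contrast all 4 paralogue 9 genes, all 3 paralogue 5 genes and both paralogue 7 genes were above it in all 15 arrays. Paralogue 4 was split, with Hoxb4 above the median in 15 arrays, Hoxc4 in 6, Hoxd4 in 2 and Hoxa4 in 1.

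**Figure D1:**
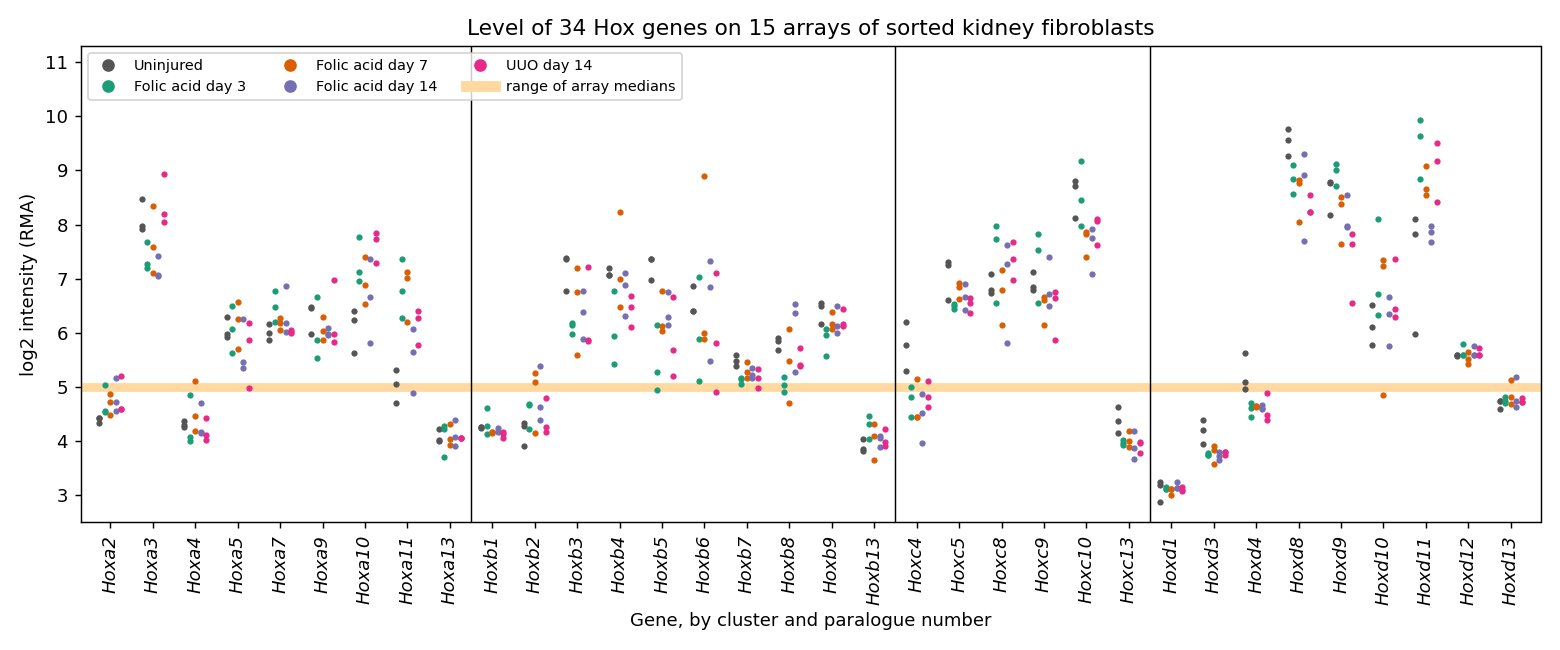
Log2 intensity of the 34 Hox genes (vertical axis) in each of the 15 arrays, by cluster and paralogue number (horizontal axis), with 1 point per array coloured by group and a band over the array medians of 4.93 to 5.06. Paralogue 9 lies above the band in every cluster, paralogue 1 below it, and paralogue 13 below it except in 2 arrays of Hoxd13.

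Against uninjured kidney the called increases were those of the paralogue 10 and 11 genes Hoxa10, Hoxa11 and Hoxd11, and the called decreases were those of Hoxb5, the paralogue 4 genes Hoxc4 and Hoxd4, Hoxd8 and Hoxd9. The counts were small. At folic acid day 3, 6 of 28 were called (21.4%, against 17.0% of all genes tested), with Hoxa10, Hoxa11 and Hoxd11 higher (10.7%, against 10.6%) and Hoxb5, Hoxc4 and Hoxd4 lower (10.7%, against 6.39%). At day 7, 2 were called (7.14%, against 11.7%), Hoxa11 higher (3.57%, against 7.50%) and Hoxc4 lower (3.57%, against 4.19%). At day 14 Hoxc4 was called lower (3.57%, against 1.47% of all genes called lower and 5.67% called in either direction). There limma called 0 members higher (4.20% of all genes). At an unadjusted p under 0.05 the count was also 0, and the share of all genes at that cut was not computed. In UUO, 6 were called (21.4%, against 16.6%), Hoxa10 and Hoxd11 higher (7.14%, against 9.07%) and Hoxb5, Hoxd4, Hoxd8 and Hoxd9 lower (14.3%, against 7.52%). These shares are near the background of all genes, and the number of calls is no feature of the Hox genes. The 4 comparisons share the uninjured arrays.

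The median change over the 28 members was log2 -0.24 in UUO and, after folic acid, -0.01 (day 3), -0.18 (day 7) and -0.12 (day 14). Over all genes tested it was -0.01 in UUO and 0.02, 0.01 and 0.02 after folic acid. Medians by paralogue number rest on 1 to 4 tested genes each, and the differences between them were not tested. Over the tested paralogue 11 genes, Hoxa11 and Hoxd11, the median was 1.42 in UUO and 1.97, 1.60 and 0.52 after folic acid. Over the 3 paralogue 10 genes it was 0.58 and 0.92, 0.36 and 0.13, and over the 4 paralogue 4 genes -0.67 and -0.83, -0.23 and -0.48. Paralogue 3 (Hoxa3 and Hoxb3) stood at -0.30 and -0.91, -0.55 and -0.89, and paralogue 5 at -0.53 and -0.56, -0.25 and -0.39. Paralogue 8 had -0.31 and -0.70, -0.40 and 0.04. For clusters Hoxa, Hoxb, Hoxc and Hoxd the UUO medians were 0.14, -0.46, -0.53 and 0.05. Those at day 3 were 0.16, -0.65, -0.02 and 0.07, and at day 7 0.22, -0.19, -0.45 and -0.06. The day 14 medians were 0.19, -0.22, -0.39 and 0.06. Members whose 3 arrays all lay below the 3 uninjured arrays numbered 11 of 28 at day 3 (39.3%, against 19.4% of all genes), 6 at day 7 (21.4%, against 15.3%), 6 at day 14 (21.4%, against 12.2%) and 9 in UUO (32.1%, against 20.9%). Members whose arrays all lay above numbered 5 (17.9%, against 22.7%), 4 (14.3%, against 18.4%), 2 (7.14%, against 15.5%) and 4 (14.3%, against 20.3%). An F test for any difference among the 5 groups called 5 members, Hoxa11, Hoxb5, Hoxc4, Hoxd9 and Hoxd11 (17.9%, against 15.3% of all genes).

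**Figure D2:**
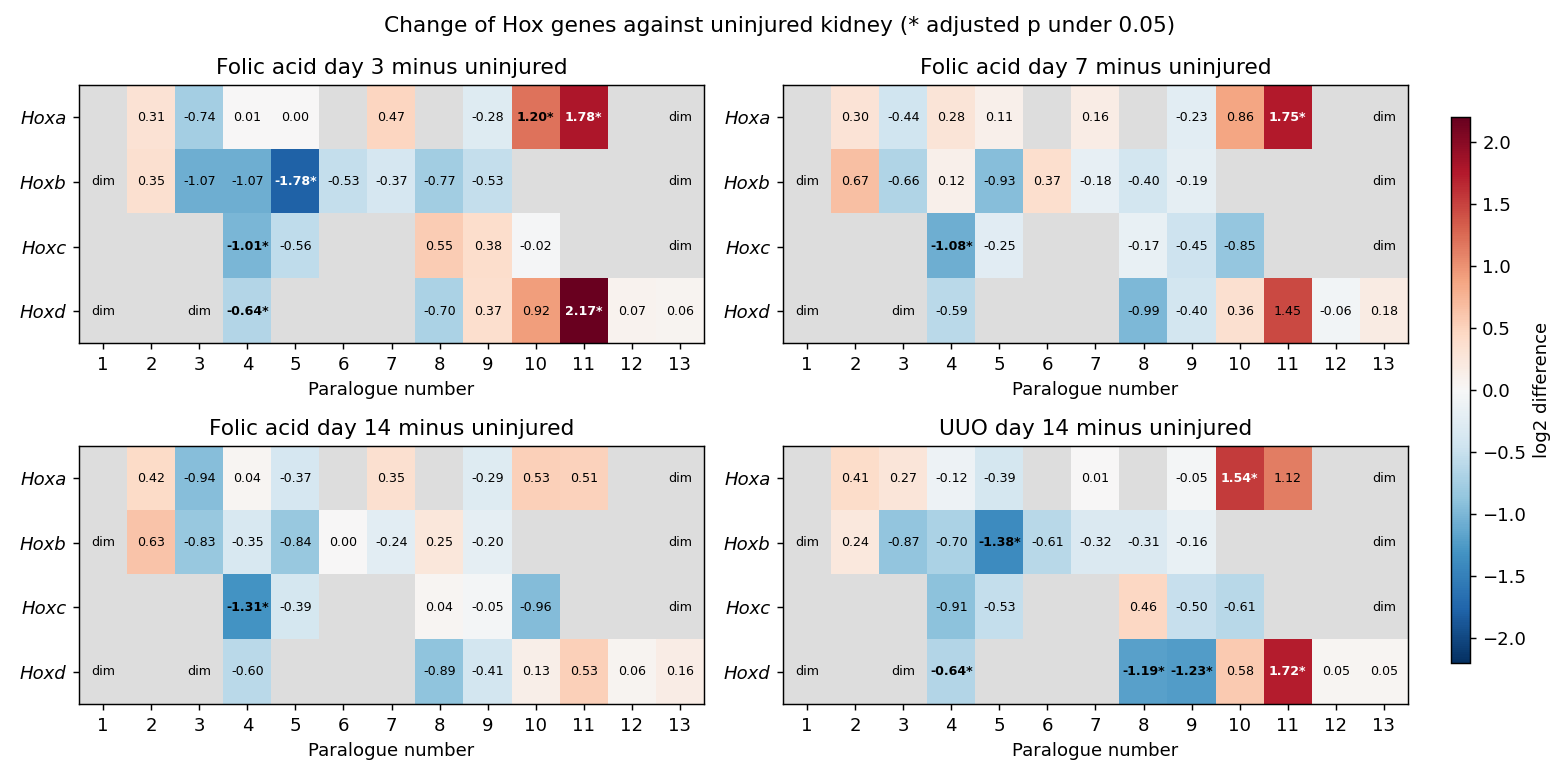
Log2 difference of each tested Hox gene from uninjured kidney (colour and printed value), with clusters as rows and paralogue numbers as columns, in 1 panel per injured group. Asterisks mark an adjusted p under 0.05 by limma, members marked dim were not tested and plain grey squares hold no gene measured here; the called increases lie in columns 10 and 11, up to 2.17 for Hoxd11 at day 3.

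Hoxa11 and Hoxd11 are the paralogue 11 pair measured here, and both were higher after injury, most clearly at day 3. Hoxa11 read 5.32, 5.06 and 4.71 in uninjured kidney and 6.41, 6.27 and 5.77 in UUO. At folic acid day 3 Hoxa11 read 7.37, 6.78 and 6.28, at day 7 7.13, 6.21 and 7.01 and at day 14 6.07, 4.89 and 5.64. All day 3, day 7 and UUO arrays were above all uninjured arrays, which lay at or just around the array median, and the day 14 arrays overlapped them. Hoxa11 rose at day 3 (log2 1.78, SE 0.36, 3.44-fold, adjusted p = 0.00502) and at day 7 (log2 1.75, SE 0.36, 3.37-fold, adjusted p = 0.00817). It kept both calls when any 1 of the 15 arrays was left out (highest adjusted p 0.0257 and 0.0396). In UUO the change was 1.12 (95% interval 0.34 to 1.90, adjusted p = 0.0508) and at day 14 it was 0.51 (interval -0.27 to 1.28, adjusted p = 0.473), and neither passed the test. Between folic acid day 14 and day 3, Hoxa11 differed by log2 -1.28 (adjusted p = 0.0801), with no overlap of the arrays.

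Hoxd11 read 8.11, 7.82 and 5.98 in uninjured kidney and 9.17, 8.41 and 9.50 in UUO. Folic acid arrays of Hoxd11 stood at 8.85, 9.93 and 9.64 (day 3), 8.55, 8.65 and 9.08 (day 7) and 7.67, 7.86 and 7.98 (day 14). One uninjured array, the third, stood at 5.98, well below its group, and it sets much of the spread (uninjured mean 7.31 ± 1.15). The day 3, day 7 and UUO arrays were nevertheless all above the highest uninjured array. Hoxd11 rose at day 3 (log2 2.17, SE 0.48, 4.49-fold, adjusted p = 0.0087), and this call held when any 1 array was left out, with a change of 1.51 without the third uninjured array. It also rose in UUO (log2 1.72, SE 0.48, 3.3-fold, adjusted p = 0.0278), but there the change was 1.06 without that array and the call was lost, as it was without UUO array 1 or 3. At day 7 the change was 1.45 (interval 0.41 to 2.49, adjusted p = 0.0706) and at day 14 0.53 (interval -0.51 to 1.57, adjusted p = 0.589). Like its paralogue Hoxa11, Hoxd11 passed no test at day 14. There the distal nephron mean was 7.14 to 7.95 (7.50 to 7.99 in uninjured arrays) and the proximal tubule mean 6.83 to 8.90 (8.04 to 9.31). The fibroblast mean was 6.85 to 7.93 (5.59 to 6.03) and the macrophage and dendritic cell mean 7.60 to 8.89 (5.06 to 5.44). The part of any of these markers in the result was not tested.

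**Figure D3:**
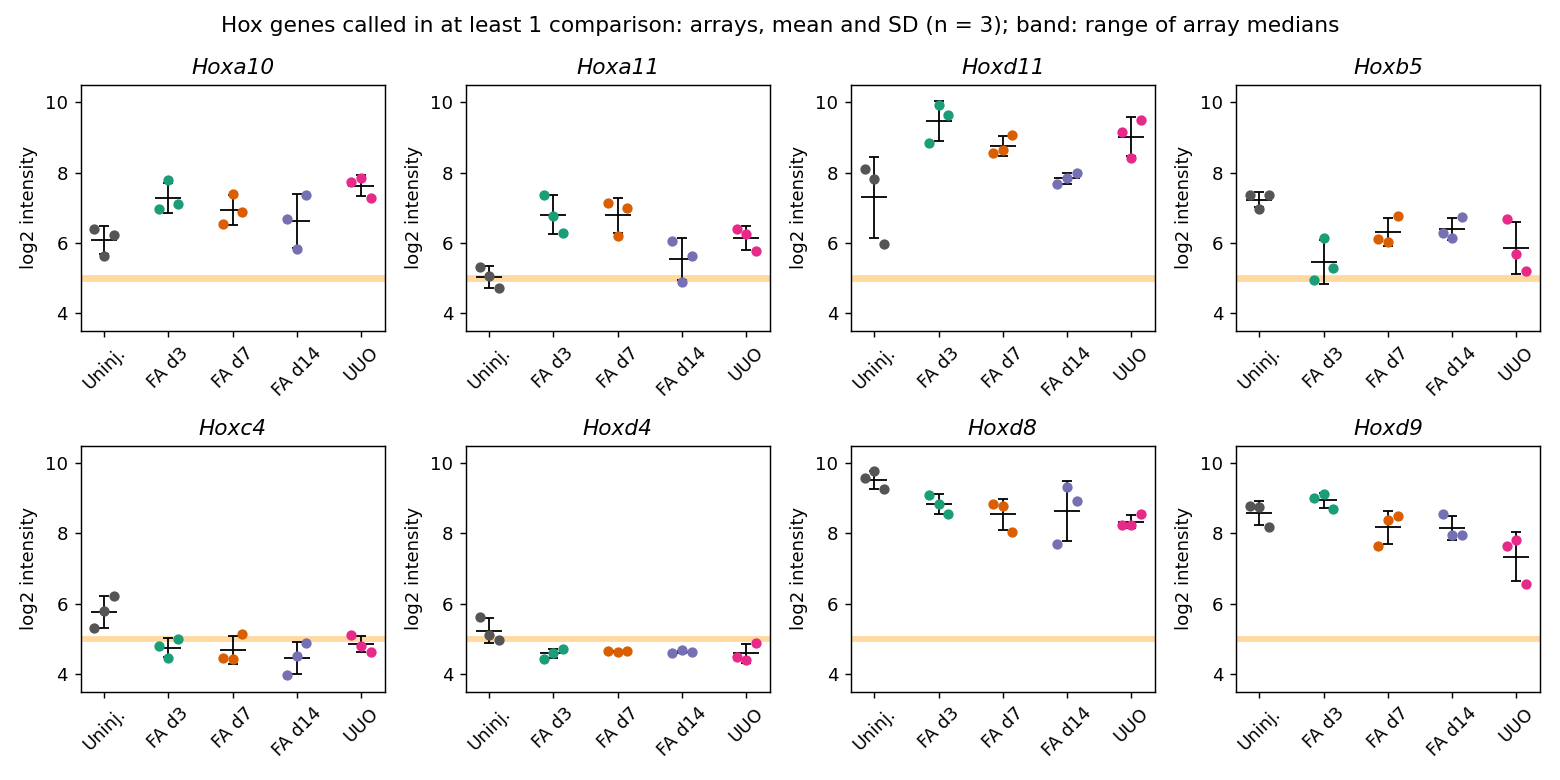
Log2 intensity (vertical axis) of the 8 Hox genes called in at least 1 comparison, by group (horizontal axis), with 1 point per array, bars for the mean and SD of 3 arrays and a band over the array medians. The third uninjured array of Hoxd11 stands at 5.98. Hoxa11 stands at 5.53 ± 0.60 at folic acid day 14, where its differences from uninjured kidney, day 3 and day 7 were not called.

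The paralogue 10 genes did not move as one. In uninjured kidney Hoxa10 read 6.40, 5.63 and 6.23, against 7.74, 7.85 and 7.29 in UUO. Values after folic acid were 6.96, 7.78 and 7.12 at day 3, 6.54, 7.40 and 6.89 at day 7 and 6.67, 5.82 and 7.37 at day 14. Every day 3, day 7 and UUO array was above every uninjured array. Hoxa10 rose in UUO (log2 1.54, SE 0.38, 2.91-fold, adjusted p = 0.0142) and at day 3 (log2 1.20, SE 0.38, 2.3-fold, adjusted p = 0.0452). The UUO call was lost without UUO array 2 or uninjured array 2. The day 3 call was lost without any of 11 arrays, namely all of day 3, UUO and uninjured, day 7 array 3 or day 14 array 1, with changes from 0.95 to 1.37. At day 7 the change was 0.86 (adjusted p = 0.161) and at day 14 0.53 (adjusted p = 0.47).

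Hoxc10 read 8.81, 8.12 and 8.72 in uninjured kidney and 8.07, 7.63 and 8.11 in UUO. For Hoxc10 the folic acid groups gave 8.45, 7.98 and 9.17 at day 3, 7.86, 7.83 and 7.40 at day 7 and 7.08, 7.91 and 7.76 at day 14. Here the day 7, day 14 and UUO arrays lay below the uninjured ones, and day 3 overlapped them. No comparison called Hoxc10, and its largest change was -0.96 at day 14 (adjusted p = 0.0976). Hoxd10 ranged from 4.86 to 8.11 and was above the array median in 14 arrays. Its pooled SD within groups, 0.84, was higher than that of 97.0% of all genes tested. None of its changes against uninjured kidney passed the test, the largest being 0.92 at day 3 (interval -0.43 to 2.28).

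The paralogue 9 genes, which act in the limb and in blood stem cells, were above the median in every array and gave 1 member with calls, Hoxd9. In uninjured kidney Hoxd9 read 8.78, 8.76 and 8.18, against 7.65, 7.82 and 6.55 in UUO. The day 3 arrays read 9.01, 9.12 and 8.71, the day 7 arrays 7.64, 8.38 and 8.51 and the day 14 arrays 8.55, 7.97 and 7.96. All 3 UUO arrays were below all uninjured and all folic acid day 3 and day 14 arrays, and 1 of them, the third, stood apart at 6.55. Hoxd9 fell in UUO (log2 -1.23, SE 0.34, 2.35-fold, adjusted p = 0.0252). Without UUO array 3, uninjured array 1 or uninjured array 2 this call was lost, and the change ran from -1.47 to -0.84 over the 15 fits with an array left out. Of the Hox genes, only Hoxd10 lies between Hoxd9 and Hoxd11 on chromosome 2 in RefSeq (GRCm38.p6), and in UUO one was called lower and the other higher.

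Hoxa9 read 6.46, 5.98 and 6.47 in uninjured kidney and 6.97, 5.98 and 5.83 in UUO. After folic acid the arrays read 5.87, 6.67 and 5.53 at day 3, 5.87, 6.04 and 6.29 at day 7 and 5.97, 6.09 and 5.98 at day 14. The groups overlapped throughout, and all changes against uninjured kidney lay between -0.29 and -0.05. In uninjured kidney Hoxb9 read 6.50, 6.56 and 6.16, against 6.16, 6.44 and 6.12 in UUO. At folic acid day 3 Hoxb9 read 5.58, 5.97 and 6.07, at day 7 6.07, 6.17 and 6.39 and at day 14 6.13, 5.99 and 6.50. At day 3 its arrays were all below the uninjured ones, with a change of -0.53 that did not pass the test (adjusted p = 0.0694). Hoxc9 read 7.12, 6.79 and 6.84 in uninjured kidney and 6.76, 5.86 and 6.65 in UUO. Folic acid arrays of Hoxc9 stood at 7.54, 7.82 and 6.55 (day 3), 6.66, 6.15 and 6.60 (day 7) and 6.72, 6.50 and 7.40 (day 14). Its day 7 and UUO arrays lay below the uninjured ones without a call, with changes of -0.45 and -0.50 (adjusted p = 0.441 and 0.369).

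Hoxd12, the single paralogue 12 gene here, was nearly flat. In uninjured kidney Hoxd12 read 5.60, 5.57 and 5.60, against 5.60, 5.60 and 5.73 in UUO. Values after folic acid were 5.59, 5.79 and 5.60 at day 3, 5.65, 5.52 and 5.42 at day 7 and 5.76, 5.60 and 5.60 at day 14. All 15 values lay within 5.42 to 5.79, and its pooled SD within groups of 0.09 was above that of only 2.4% of the genes tested. Its changes against uninjured kidney lay between -0.06 and 0.07.

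Among the central genes, Hoxb5 was the one called in more than 1 comparison, and it was lower. Hoxb5 read 7.37, 6.98 and 7.36 in uninjured kidney and 6.67, 5.69 and 5.21 in UUO. For Hoxb5 the folic acid groups gave 4.94, 6.15 and 5.28 at day 3, 6.12, 6.04 and 6.77 at day 7 and 6.29, 6.14 and 6.75 at day 14. The 3 arrays of each injured group were all below the 3 uninjured arrays, and 1 day 3 array, at 4.94, came close to the array median. Hoxb5 fell at day 3 (log2 -1.78, SE 0.38, 3.43-fold, adjusted p = 0.00706) and in UUO (log2 -1.38, SE 0.38, 2.6-fold, adjusted p = 0.0259). Leaving out any 1 array kept the day 3 call (highest adjusted p 0.0345). The UUO call was lost without UUO array 2 or 3 or uninjured array 1 or 3, and the change was -1.06 without UUO array 1. At day 7 and day 14 the changes were -0.93 (adjusted p = 0.137) and -0.84 (adjusted p = 0.237).

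The paralogue 5 genes of the other clusters gave no call. In uninjured kidney Hoxa5 read 5.92, 5.98 and 6.30, against 6.18, 4.99 and 5.87 in UUO. The day 3 arrays read 6.07, 6.50 and 5.62, the day 7 arrays 6.57, 5.70 and 6.25 and the day 14 arrays 6.26, 5.35 and 5.47. Its groups overlapped in every comparison with uninjured kidney. Hoxc5 read 7.25, 6.60 and 7.31 in uninjured kidney and 6.55, 6.65 and 6.37 in UUO. After folic acid the arrays read 6.54, 6.49 and 6.45 at day 3, 6.93, 6.62 and 6.85 at day 7 and 6.43, 6.67 and 6.90 at day 14. The day 3 arrays were below all uninjured arrays (log2 -0.56, SE 0.19, 1.47-fold, adjusted p = 0.0617), and in UUO the change was -0.53 with overlapping arrays (adjusted p = 0.0751). A second Hoxc5 probe set, above the median in all 15 arrays, changed by -0.50 at day 3 but by 0.01 in UUO.

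Paralogues 6 to 8 include Hoxb7, the gene of the ureteric bud and collecting duct. Hoxb7 read 5.59, 5.38 and 5.49 in uninjured kidney and 5.17, 4.99 and 5.34 in UUO. At folic acid day 3 Hoxb7 read 5.16, 5.15 and 5.05, at day 7 5.27, 5.17 and 5.47 and at day 14 5.17, 5.36 and 5.22. Day 3, day 14 and UUO arrays were all below the uninjured ones, by small amounts (-0.37, -0.24 and -0.32), and no comparison called it (adjusted p = 0.0748, 0.341 and 0.119). In uninjured kidney Hoxa7 read 6.16, 5.87 and 6.00, against 6.00, 6.05 and 6.02 in UUO. Folic acid arrays of Hoxa7 stood at 6.47, 6.20 and 6.78 (day 3), 6.18, 6.28 and 6.05 (day 7) and 6.87, 6.01 and 6.19 (day 14). Only at day 3 were its arrays all above the uninjured ones (0.47, adjusted p = 0.146).

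Hoxd8 read 9.57, 9.77 and 9.26 in uninjured kidney and 8.23, 8.24 and 8.55 in UUO. Values after folic acid were 9.11, 8.84 and 8.56 at day 3, 8.83, 8.77 and 8.04 at day 7 and 7.69, 9.31 and 8.92 at day 14. Every day 3, day 7 and UUO array was below every uninjured array, and at day 14 array 1 was far below arrays 2 and 3. Hoxd8 fell in UUO (log2 -1.19, SE 0.35, 2.28-fold, adjusted p = 0.0369), a call that was lost when any 1 UUO or uninjured array was left out (changes from -1.33 to -1.07). With the mean of the distal nephron and collecting duct markers in the fit, the UUO change turned to 0.15 (adjusted p = 0.976). A second Hoxd8 probe set, fitted beside all 21225 probe sets tested on their own, was also lower in UUO, by log2 -1.45 (adjusted p = 0.0121), against -1.19 (adjusted p = 0.0398) for the one used here.

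In uninjured kidney Hoxc8 read 7.09, 6.74 and 6.79, against 7.68, 6.97 and 7.36 in UUO. For Hoxc8 the folic acid groups gave 7.97, 6.56 and 7.73 at day 3, 6.14, 6.80 and 7.16 at day 7 and 5.81, 7.28 and 7.63 at day 14. Its groups overlapped in every comparison with uninjured kidney and gave no call. Hoxb8 (4.71 to 6.54, above the median in 13 arrays) and Hoxb6 (4.91 to 8.89, in 14 arrays) were not called either. At day 3 the 3 Hoxb8 arrays were below the uninjured ones (-0.77, adjusted p = 0.147). Hoxb6 had the widest spread of the members, with a pooled SD within groups of 1.10, above that of 99.2% of the genes tested, and 1 day 7 array at 8.89 against 5.99 and 5.88. That array was also the highest of its group for Hoxb2, Hoxb3, Hoxb4 and Hoxb8, and thus for 5 of the 8 tested Hoxb genes. In UUO, array 1 was likewise the highest for 5 of 8. The other clusters held such counts too. Day 3 array 2 and UUO array 1 were each the highest of their group for 5 of 8 tested Hoxa genes. So were uninjured array 1 for 5 of 7 Hoxd genes and day 14 array 3 for 4 of 5 Hoxc genes. These are the largest counts of each cluster. How often an array was the highest of its group over all genes was not counted, so no background stands beside them. Over all tested members the median pooled SD was 0.43, against 0.34 over all genes tested.

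Of the anterior genes, which pattern the hindbrain and neck in the embryo, Hoxc4 and Hoxd4 were called, both lower. Hoxc4 read 5.30, 5.78 and 6.21 in uninjured kidney and 5.11, 4.81 and 4.64 in UUO. The day 3 arrays read 4.81, 4.45 and 5.00, the day 7 arrays 4.45, 4.44 and 5.15 and the day 14 arrays 3.97, 4.52 and 4.87. All 12 arrays of injured kidney were below all 3 uninjured arrays, and most of them were at or under the array median. Hoxc4 fell at day 3 (log2 -1.01, SE 0.29, 2.01-fold, adjusted p = 0.0335), day 7 (log2 -1.08, SE 0.29, 2.12-fold, adjusted p = 0.032) and day 14 (log2 -1.31, SE 0.29, 2.48-fold, adjusted p = 0.0217), and it is the only member with a call at all 3 folic acid times. In UUO the change was -0.91 (interval -1.55 to -0.28, adjusted p = 0.0511). Without uninjured array 2 or 3 each of the 3 calls was lost. So were the day 3 call without day 3 array 1 or 2, the day 7 call without day 7 array 1 or 2 and the day 14 call without day 14 array 1.

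In uninjured kidney Hoxd4 read 5.63, 5.10 and 4.96, against 4.48, 4.39 and 4.89 in UUO. After folic acid the arrays read 4.44, 4.61 and 4.71 at day 3, 4.65, 4.63 and 4.65 at day 7 and 4.60, 4.67 and 4.62 at day 14. Only 2 uninjured arrays were above the array median, and every array of injured kidney was below every uninjured one. Hoxd4 fell at day 3 (log2 -0.64, SE 0.18, 1.56-fold, adjusted p = 0.0275) and in UUO by the same amount (log2 -0.64, SE 0.18, 1.56-fold, adjusted p = 0.0275), while day 7 (-0.59, adjusted p = 0.0525) and day 14 (-0.60, adjusted p = 0.0714) missed the threshold. Both calls were lost without uninjured array 1. The day 3 call was also lost without day 3 array 1 or 2, and the UUO call without UUO array 1 or 2. Differences between values at the lower end of the scale are compressed, which touches both genes in the injured groups.

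Hoxa3, Hoxb3 and Hoxb4 were above the median in all 15 arrays and had no call. In uninjured kidney Hoxa3 read 7.92, 8.47 and 7.98, against 8.19, 8.05 and 8.94 in UUO. At folic acid day 3 Hoxa3 read 7.20, 7.27 and 7.68, at day 7 7.10, 7.59 and 8.35 and at day 14 7.42, 7.07 and 7.05. Day 3 and day 14 arrays were below the uninjured ones, and the UUO arrays overlapped them. The largest change against uninjured kidney was -0.94 at day 14 (adjusted p = 0.103), while a dimmer probe set of Hoxa3 gave 0.06. In uninjured kidney Hoxb3 read 6.77, 7.39 and 7.37, against 7.22, 5.85 and 5.87 in UUO. Folic acid arrays of Hoxb3 stood at 5.98, 6.14 and 6.18 (day 3), 5.60, 7.20 and 6.75 (day 7) and 5.89, 6.38 and 6.77 (day 14). At day 3 all its arrays were below the uninjured ones (-1.07, adjusted p = 0.107). The probe sets of Hoxb3 disagreed, and in UUO the one used here changed by -0.87 and the other by 0.57, neither with a call.

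Hoxb4 read 7.20, 7.07 and 7.07 in uninjured kidney and 6.48, 6.10 and 6.68 in UUO. Values after folic acid were 5.95, 6.77 and 5.42 at day 3, 6.47, 8.24 and 7.00 at day 7 and 6.31, 7.10 and 6.88 at day 14. The 3 uninjured arrays agreed closely and day 7 array 2 stood out at 8.24. At day 3 the probe set used here changed by -1.07 without a call (adjusted p = 0.102), while a second probe set of Hoxb4 was called lower in the fit of single probe sets (log2 -0.75, adjusted p = 0.0455). The other 3 tested anterior genes were dim and lay under the array median in most arrays. Hoxa2 (4.34 to 5.21) and Hoxb2 (3.91 to 5.38) were above the median in 3 arrays each and Hoxa4 (4.01 to 5.12) in 1, with no call. Of Hoxa2, the 3 arrays of each injured group were all above the uninjured ones, by log2 0.30 to 0.42.

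UUO and folic acid were also compared directly. Of the Hox genes 1 was called, in the comparison with day 3, where model and time differ together. Against folic acid day 3, Hoxd9 was lower in UUO (log2 -1.61, SE 0.34, 3.04-fold, adjusted p = 0.0412), 1 of 28 (3.57%, against 0.606% of all genes called lower and 1.13% in either direction), with no overlap of the arrays. The call was lost in 10 of the 15 fits with an array left out, namely each of day 3, UUO array 1 or 3, uninjured array 1 or 2, day 7 array 2 and day 14 array 2 or 3, with changes from -1.85 to -1.21. Against folic acid day 14, the matched time, 0 of 28 were called by limma (3.03% of all genes were), with 4 at an unadjusted p under 0.05. The nearest was Hoxa3, which read 8.39 ± 0.48 in UUO and 7.18 ± 0.21 at day 14 (log2 1.21, SE 0.31, 2.31-fold, adjusted p = 0.0566). It was called without day 7 array 1 or day 7 array 3. A dimmer probe set of Hoxa3 changed against uninjured kidney by -0.04 in UUO and by 0.06 at day 14, without a call. Against day 7, 0 were called by limma (0.274% of all genes), with 2 at an unadjusted p under 0.05. For neither unadjusted count was the share of all genes computed, so no background stands beside them.

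Between the folic acid times limma called 0 of 28 members. Of all genes it called 0.695% between days 7 and 3, 3.05% between days 14 and 3 and 0.0518% between days 14 and 7. Among the members 5, 6 and 1 had an unadjusted p under 0.05 in these comparisons. The share of all genes at that unadjusted cut was not computed, so these counts have no background beside them. From day 3 to day 14 the largest decreases were those of Hoxd11 (log2 -1.64, SE 0.48, 3.11-fold, adjusted p = 0.0936) and Hoxa11 (log2 -1.28, SE 0.36, 2.42-fold, adjusted p = 0.0801), and Hoxb8 had the largest increase (log2 1.01, SE 0.34, 2.02-fold, adjusted p = 0.145). Hoxd11 was called in this comparison without uninjured array 3, and Hoxb8 without day 14 array 1. With all 15 arrays the difference of the paralogue 11 genes between day 3 and day 14 did not pass the test.

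The partner proteins of the Hox family were described from lists of companion genes. Of the TALE homeodomain cofactors (PBX, MEIS and PKNOX), 8 of 9 listed were measured and tested. Meis1, a Hox cofactor that also marks kidney stroma, was at 5.47 in uninjured kidney and rose at day 3 (log2 1.04, SE 0.22, adjusted p = 0.00614), day 7 (1.10, adjusted p = 0.00658) and most in UUO (2.29, adjusted p = 2.93e-05). At day 14 its change was 0.73 (adjusted p = 0.0691). Pknox2 was at 4.61 in uninjured kidney and rose in all 4 groups (2.55, 3.21, 2.12 and 2.36 in the order day 3, day 7, day 14 and UUO, adjusted p = 0.00807, 0.00304, 0.0448 and 0.0118). The other 6, among them Pbx2, Pbx3, Meis2 and Pknox1, were not called against uninjured kidney, and 0 were lower there. Beside these calls stand 10.6%, 7.50% and 4.20% of all genes called higher at days 3, 7 and 14 and 9.07% in UUO. From day 3 to day 14 Pbx3 fell (log2 -0.99, SE 0.17, adjusted p = 0.00936). Meis1 was also called higher in UUO than in each folic acid group, which was so of no Hox gene.

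Chromatin and signalling genes that set Hox expression gave 1 call against uninjured kidney. Of 19 listed, 16 were measured and 14 tested. The call was that of Gdf11, a secreted signal that sets posterior Hox boundaries, which was lower at day 3 (log2 -0.53, SE 0.16, adjusted p = 0.0448). Calls in either direction over all genes tested ran from 5.67% (day 14) to 17.0% (day 3). With 14 genes, 1 call cannot show that this list changed less than other genes, and a gene without a call may still have changed. The Polycomb genes Ezh2, Eed and Suz12, which keep Hox clusters silent, were not called. Of 9 listed partners and targets of the paralogue 11 proteins in the embryonic kidney, 6 were measured and 4 tested. Sall1, a nephron progenitor factor, fell at day 3 (log2 -2.41, SE 0.64, adjusted p = 0.0226), and Itga8, an integrin of kidney mesenchyme, fell in UUO (log2 -1.82, SE 0.53, adjusted p = 0.0326). Neither was called higher against uninjured kidney, and a link of either to Hoxa11 and Hoxd11 was not tested. Of 10 listed stromal transcription factors, 8 were measured and 7 tested, and Tcf21 was higher in all 4 injured groups (log2 4.48 in UUO and 4.52, 4.09 and 3.03 at folic acid days 3, 7 and 14). Prrx1 was higher at day 3, day 7 and in UUO, Twist1 was higher in UUO, and Gata3, a collecting duct and mesangial factor, was lower there (log2 -2.78, adjusted p = 0.00886). The share of all genes called higher was 10.6%, 7.50% and 4.20% at days 3, 7 and 14 and 9.07% in UUO. Those called lower made up 6.39% at day 3 and 7.52% in UUO.

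The Hox changes lay beside changes of other cell types' markers. At folic acid day 3, 8 of 15 distal nephron and collecting duct markers, 5 of 10 tested proximal tubule markers and 4 of 5 podocyte markers were called lower and 0 higher, and in UUO 13 of 15, 8 of 10 and 3 of 5. Of all genes tested, 6.39% were called lower at day 3 and 7.52% in UUO. The endothelium list, with 9 markers tested, was mixed. At day 3 Emcn and Eng were called higher and Kdr and Tek lower, at day 7 Eng was higher, and in UUO Kdr, Tek and Plvap were lower. The proximal tubule mean over 11 markers was 8.04 to 9.31 in uninjured arrays, 6.34 to 6.49 at day 3, 5.41 to 8.12 at day 7, 6.83 to 8.90 at day 14 and 5.19 to 5.65 in UUO. The podocyte mean over 5 markers was 7.35 to 7.98 in uninjured arrays and 5.80 to 6.96 in all injured ones. None of these lists was near the floor in uninjured kidney, where Umod, made by the thick ascending limb, was at 11.74. Of the 15 macrophage and dendritic cell markers, 3 were called higher in UUO, and after folic acid 4 at day 3, 11 at day 7 and 10 at day 14. The share of all genes called higher was 9.07% in UUO and 10.6%, 7.50% and 4.20% at days 3, 7 and 14.

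With the proximal tubule mean added to the fit, 3 of the 16 calls on Hox genes stayed past the threshold, with the distal nephron mean 1 and with the macrophage mean 3. How many calls over all genes these fits kept was not counted. Hoxb5 at day 3 kept its call beside the proximal tubule mean (-2.15, adjusted p = 0.0318) and the macrophage mean (-1.99, adjusted p = 0.0197) and lost it beside the distal nephron mean (-2.70, adjusted p = 0.148). Hoxa11 at day 3 changed by 1.74 (adjusted p = 0.0667) beside the proximal tubule mean, 1.24 (adjusted p = 0.529) beside the distal nephron mean and 1.68 (adjusted p = 0.0354) beside the macrophage mean. Beside the distal nephron mean Hoxa10 moved to 0.15 at day 3 and 0.19 in UUO, and Hoxd8 in UUO changed sign. Hoxc4 at day 14, when the tubule means overlapped their uninjured range in part, kept its call beside the proximal tubule mean (-1.37, adjusted p = 0.0187) and the distal nephron mean (-1.42, adjusted p = 0.00885). It lost the call beside the macrophage mean (-1.87, adjusted p = 0.709). The tubule means of the uninjured arrays do not overlap those of day 3 or UUO. The distal nephron mean of the uninjured arrays (7.50 to 7.99) does not overlap that of day 7 (5.72 to 7.03) either. The macrophage mean of the uninjured arrays overlaps that of no injured group. In these comparisons the covariate and the group cannot be told apart. The macrophage covariate was chosen after seeing the data.

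**Figure D4:**
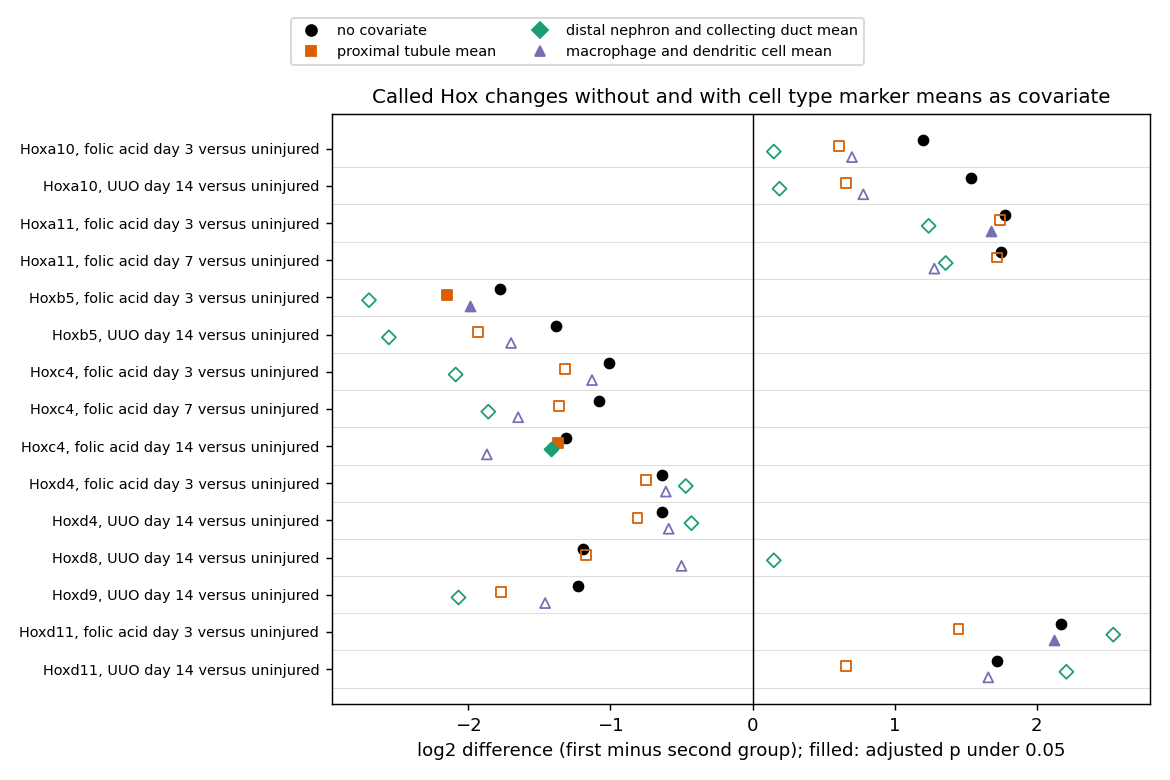
Log2 differences from uninjured kidney (horizontal axis) of the 15 calls on Hox genes in those comparisons (vertical axis), without a covariate and with the mean of 1 of 3 marker lists in the fit; filled symbols have an adjusted p under 0.05. Only the change of Hoxd8 in UUO crosses 0, turning to 0.15 beside the distal nephron mean, and all others keep their side.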

How the data were processed

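RNA of PDGFra-positive fibroblasts from 15 mouse kidney samples (5 groups of 3) was amplified and measured on arrays. The deposited values of 45141 probe sets are log2 intensities. Per the submitters' processing notes the authors used RMA, affy and limma, and the notes give no versions. The values were used without further normalization, with no detection call or background signal. The genome build of the array is not given in the sources used here. Of the probe sets 28898 named 1 gene, 551 several and 15692 none in the platform annotation used here, and symbols were checked by Entrez identifier (28689 matched, 0 changed). Hox genes not among the 34 were not analysed here.

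Genes above the 40th percentile in 3 or more arrays were tested, and 3574 dim genes were left out. The fit used limma 3.58.1 (R 4.3.3) with a mean for each group, lmFit and eBayes, over 13523 genes and all 15 arrays, with 10 residual degrees of freedom and 2-sided tests. The Benjamini-Hochberg adjustment was made within each of 10 comparisons and for the F test, and calls were made at an adjusted p under 0.05. Intervals are 95% intervals of the fit. The fit was tested on simulated data. Values in every array were given for members with a call and members above the array median in all 15 arrays, and the other members were summarised. The members, companion lists, marker lists and tests were chosen with earlier results of these data known. Promoter sequences came from RefSeq (GRCm38.p6). Plots were drawn with matplotlib 3.10.9. Alternatives covered normalization, array weights, filters, probe sets, covariates and leaving out arrays.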

Additional observations from a re-analysis of the deposited data

Results flagged for a closer look

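Hoxd9 was lower in UUO at day 14 than in folic acid kidney at day 3, by log2 -1.61 (adjusted p = 0.0412, limma). It drew attention because these groups differed in a direct test of the difference between them, which was called for no other Hox gene in a comparison of UUO with folic acid. The arrays of these groups did not overlap. Model and time differ together in this comparison, and at the matched day 14 Hoxd9 was not called (log2 -0.82, adjusted p = 0.225), nor against day 7 (log2 -0.84, adjusted p = 0.463).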

How the results depend on the processing

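All array-level limits stand on 3 samples per group, and no signal over background was used. Median centring, and the mean of probe sets, kept the 16 calls on single Hox genes, and array weights kept them too. Quantile normalization kept 13, no filter on dim genes 14, only the arrays compared 9 and a filter at the 60th percentile all 11 that could be tested. Counts of called members moved as follows, and the cause was not tested. Some of these fits used fewer arrays or genes. The share of all genes called was not computed for these fits, nor for those with an array left out. A moved count is therefore not read as particular to the Hox genes. At day 3 array weights gave 14, and covariates gave 2 (proximal tubule mean), 0 (distal nephron mean) and 3 (macrophage mean). At day 7 they were 4 with quantile normalization, 1 with only the arrays compared, 1 with the 60th percentile and 0 with each covariate. At day 14 they were 2 with quantile normalization, 2 with array weights, and 0 with only the arrays compared, with the 60th percentile, with the macrophage mean, and without day 7 array 1 and day 14 arrays 1 and 2. In UUO they were 0 with each covariate. UUO against day 14 gave 1 (Hoxa3) with the 60th percentile. UUO against day 3 gave 0 with quantile normalization, with no filter, with only the arrays compared and with the distal nephron or macrophage mean. Day 14 against day 3 gave 1 (Hoxb8) without those 3 arrays, which leaves 1 array at day 14, assumed to vary like the other groups. The F test gave 9 with array weights, 3 with no filter, 0 with the proximal tubule mean and 1 with the distal nephron mean. Hoxd8 in UUO turned to 0.15 with the distal nephron mean. The macrophage covariate, the leaving out of those 3 arrays (which kept 11 of the 16 calls) and the fit of single probe sets were chosen after seeing the data. With each array left out in turn, counts ran from 3 to 7 at day 3, 1 to 3 at day 7, 0 to 1 at day 14 and 2 to 8 in UUO. They ran from 0 to 1 for UUO against day 14, UUO against day 3 and day 14 against day 3, from 0 to 0 for the other comparisons, and from 1 to 6 for the F test. Members above the array median in all 15 arrays numbered 18 with quantile normalization, 16 with the mean of probe sets and 14 against the 60th percentile. No paired analysis was possible because the samples carry running numbers that no groups share.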

Other observations

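Hoxb5os, a long non-coding RNA transcribed antisense to Hoxb5 and not a member of the Hox genes above, was looked at after its values were seen. It was at 8.76 in uninjured kidney and fell at folic acid day 3 to 5.00 (log2 -3.75, SE 1.03, adjusted p = 0.0256, limma), with no overlap of the arrays. In UUO it was at 6.47 (log2 -2.29, interval -4.52 to -0.06, adjusted p = 0.156). At day 7 and day 14 it was at 7.24 and 8.47, and its changes of -1.52 and -0.29 did not pass the test. Hoxb5 itself was called lower at day 3 and in UUO. Hoxaas2, an antisense RNA of the Hoxa cluster, changed by between -0.04 and 0.44 and was not called.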
